A study of Sus scrofa with 50 samples.

Results

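Among the 10 libraries labelled brain in a series of 50 libraries from Korean minipigs (Sus scrofa), 2 carried the RNA of myelin and astrocytes and the other 8 carried the RNA of pituitary hormones. The sets were selected on measured values: a library was placed in the MBP-high set when the summed level of MBP, myelin basic protein, was above 1000 TPM (a length-normalised share of the library's transcripts, scaled to the same total in each library), and in the other set when it was below. The MBP-high set held 1 library of an ET-type animal (S0235) and 1 library of an L-type animal (S0355). The other set held 4 ET libraries (S0242, S0276, S0309 and S0326) and 4 L libraries (S0349, S0377, S0384 and S0385). Nothing fell near the limit: the lowest library inside it was S0235 at 30538 TPM and the highest outside it was S0309 at 80.1 TPM.

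The series compares the ET and L types of minipig in 5 tissues, with 5 animals of each type and 1 library per animal and tissue. ET and L are the submitters' labels and are not spelled out there. The labels name no treatment, and brain region, age and sex are not given in the sources used here. TRIzol RNA went into stranded mRNA-seq libraries according to the labels, and levels are TPM of assembled transcripts, summed here per closest Swiss-Prot protein.

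As background, myelin is the fatty sheath that oligodendrocytes wrap around axons in brain and spinal cord, made mostly of lipid with a few abundant proteins such as MBP. Astrocytes, the other main class of glia, hold the filament protein GFAP. The pituitary is an endocrine gland below the hypothalamus, whose anterior lobe secretes prolactin (PRL), the peptides cut from POMC, growth hormone, and the glycoprotein hormones that share the CGA subunit. Its posterior lobe is made of the endings of hypothalamic neurons that release oxytocin and vasopressin, with glia-like cells around them.

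Because the sets were chosen by MBP and all genes of these libraries are read from the same samples, every value below for one set against the other is a description and carries no test. A gene is called higher or lower here when both MBP-high libraries lay above, or below, all 8 others and the means of log2(TPM + 1) differed by at least 2. This scale understates the difference of genes near 1 TPM. In bulk tissue, fewer cells of a type and less RNA per cell cannot be told apart.

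The myelin gene MBP and the glial filament gene GFAP were higher in the MBP-high libraries, with no overlap of ranges. MBP was at 30538 TPM in S0235 and 37999 TPM in S0355. In the other 8 libraries MBP was at 56.3 (S0242), 51.1 (S0276), 80.1 (S0309), 15.98 (S0326), 54.7 (S0349), 63.9 (S0377), 28.8 (S0384) and 63.2 TPM (S0385). These 8 values overlapped those of the 40 libraries from backfat, loin, lymph and tenderloin, where MBP ranged from 2.51 to 55.5 TPM. GFAP was at 5001 and 15095 TPM against 0.985 to 43.6 TPM (median 5.77), with S0384 highest among the 8. Among the 8, the ET and L libraries overlapped for MBP, at 15.98 to 80.1 TPM in ET and 28.8 to 63.9 TPM in L. The MBP-high set holds 1 library of each type, so the types cannot be compared within it.

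Pituitary hormones ran the other way, and the ranges did not overlap for any of the 3 that were matched. PRL was at 11.09 TPM in S0235 and 13.98 TPM in S0355, against 805 to 40120.5 TPM (median 12459) in the other 8. POMC was at 6.92 and 7.75 TPM against 5271 to 77972 TPM (median 13426). CGA was at 0.737 and 4.46 TPM against 2085 to 28265 TPM (median 12335). The 3 hormones together took 2.10% to 8.30% of all TPM in the 8 libraries and 0.00187% and 0.00262% in S0235 and S0355. In the 40 libraries of other tissues PRL reached at most 1.93 TPM, CGA 2.59 TPM and POMC 8.41 TPM, so both MBP-high libraries were above that range for PRL, S0355 alone was above it for CGA, and both were within it for POMC. The genes for growth hormone (GH1) and the beta subunits TSHB, FSHB and LHB had no matching entry and were not analysed here by entry name.

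**Figure D1:**
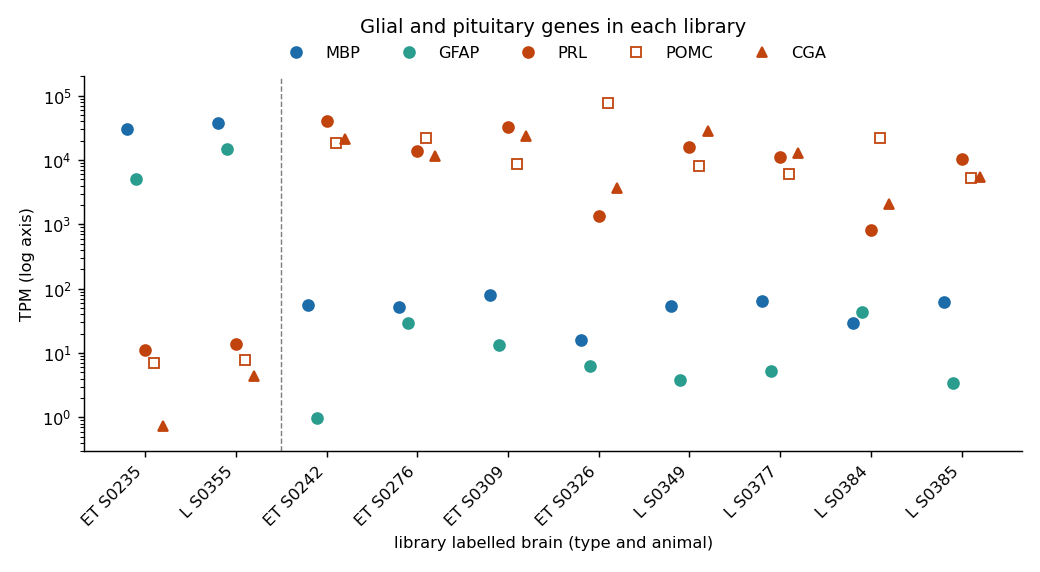
TPM (log axis) of the myelin gene MBP, the astrocyte gene GFAP and the pituitary hormone genes PRL, POMC and CGA in each library labelled brain, with 1 point per gene and library and the 2 MBP-high libraries left of the dashed line. MBP and GFAP lie at 5001 TPM or more in S0235 and S0355 and at 80.1 TPM or less in the other 8, and the hormone genes lie at 13.98 TPM or less in the former and at 805 TPM or more in the latter.

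In the pig genome build Sscrofa11.1, which the submitters' processing notes name, RefSeq places these genes apart from each other. MBP spans 147649516 to 147685289 and CGA spans 55552675 to 55569057 on chromosome 1. GFAP lies on chromosome 12 at 18456268 to 18466594. POMC lies on chromosome 3 at 113661712 to 113668558 and PRL on chromosome 7 at 17451367 to 17463771. The deposited values are per assembled transcript, so no exon or UTR is assigned to them.

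A pair of assembled transcripts carried the MBP entry, and they behaved differently. As background, the MBP gene makes the classic myelin proteins and, from an upstream start, longer products that are also found in immune cells. Both transcripts matched the human MBP entry from residue 1, the 2678-base one to residue 304 and the 5458-base one to residue 213. Which product each transcript makes was not tested. The 2678-base transcript was at 30516 TPM in S0235 and 37978 TPM in S0355, against 3.20 to 34.1 TPM (median 11.5) in the other 8. The 5458-base transcript was at 22.6 and 20.97 TPM against 12.8 to 51.3 TPM (median 47.1), so its ranges overlapped. In the libraries of other tissues the longer transcript ranged from 1.08 to 54.4 TPM. The longer transcript made up 57.5% to 88.7% of MBP TPM in the 8 libraries and 0.0741% and 0.0552% in S0235 and S0355. Only the shorter transcript had ranges without overlap.

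**Figure D2:**
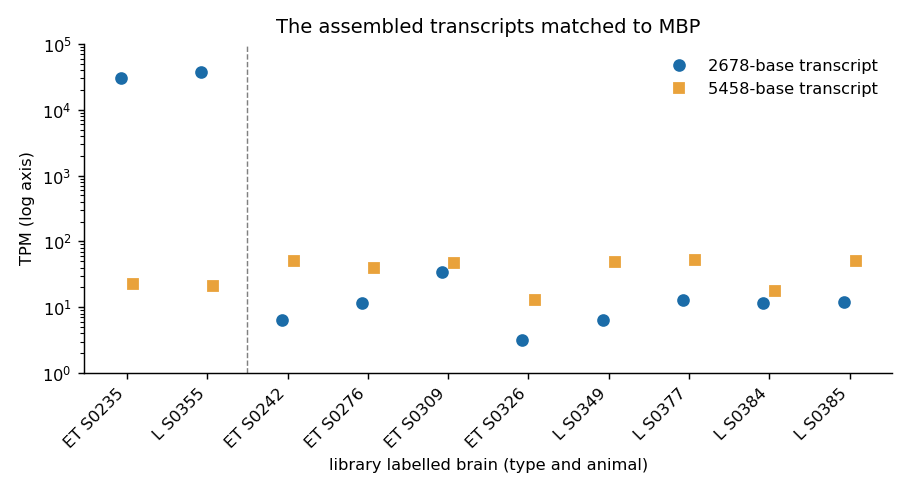
TPM (log axis) of the 2 assembled transcripts matched to MBP, 2678 and 5458 bases long, in each library labelled brain, with the MBP-high libraries left of the dashed line. The shorter transcript is at 30516 and 37978 TPM in S0235 and S0355 and at most 34.1 TPM elsewhere, while the longer one lies between 12.8 and 51.3 TPM in all 10 libraries.

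Across all genes, 433 of 13210 tested were called higher in the MBP-high libraries (3.28%) and 1008 were called lower (7.63%). Without the size limit, ranges did not overlap for 1152 genes that were higher and 4428 that were lower. The median difference over all genes was -0.67 log2 units, so most genes lay lower in the MBP-high set on the TPM scale. Scaling the libraries by median ratios moved that median to -0.00063 and turned the split to 789 higher and 501 lower, which is 61.2% higher calls against 30.0% on the TPM scale. The median-ratio size factor was 0.511 for S0235 and 0.86 for S0355, so a typical gene read lower in S0235 on the TPM scale. Mitochondrially encoded transcripts took 31.4% of TPM in S0235 and 7.91% in S0355, against 4.08% to 11.9% in the other 8. With those transcripts left out before rescaling, 551 genes were called higher and 845 lower. Without S0235 the counts were 664 and 752, and without S0355 they were 373 and 2047.

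**Figure D3:**
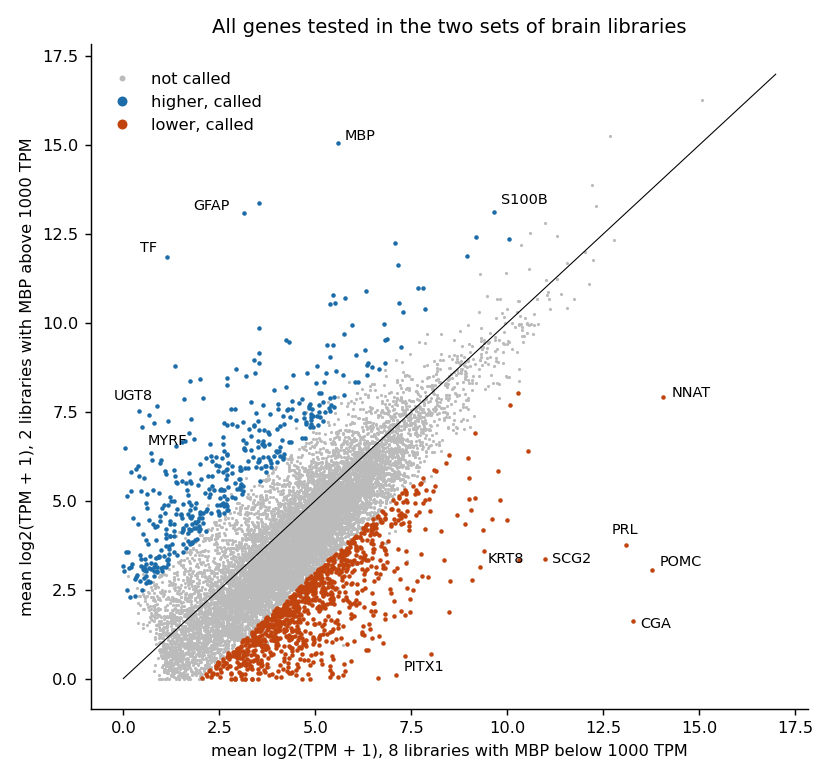
Mean log2(TPM + 1) of each of the 13210 genes tested, in the 8 libraries with MBP below 1000 TPM (x axis) and in the 2 with MBP above it (y axis), with the line of equality. Blue points are the 433 genes called higher, red points the 1008 called lower and grey points the rest, and TF, GFAP and MBP above the line and CGA, POMC and PRL below it are among the farthest from it.

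The 20 called genes with the largest differences among those averaging at least 50 TPM in the MBP-high set included 8 from the list for myelin and oligodendrocytes and 1, GFAP, from the list for astrocytes. MBP, by which the sets were chosen, is among the 8. Transferrin (TF), the iron carrier that oligodendrocytes also make, was at 3028 TPM in S0235 and 4518 TPM in S0355 against 0.094 to 8.28 TPM in the other 8. It stood first, with a difference of 10.7 log2 units, and GFAP (9.94) and MBP (9.47) were among those that came next. CMTM5, a membrane protein of the MARVEL family, was at 384.9 and 507 TPM against at most 5.10 TPM. TTYH1, an anion channel family member, was at 416 and 257 TPM against at most 18.9 TPM. It and PPP1R14A, an inhibitor of myosin phosphatase (438 and 390 TPM against at most 10.1 TPM), were the 2 of these 20 that were higher in S0235 than in S0355. Another 13 were UGT8, SNX22, FA2H, MYRF, EVI2A, GJB1, SOX10, BCAS1, MAL, EFHD1, ZFP57, HEPACAM and ATP6V1C2, with differences from 5.63 to 7.12.

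Of 25 genes listed for myelin and oligodendrocytes, 16 were matched and tested, and 14 were called higher and none lower, against 3.28% higher calls among all genes, with a median difference of 5.71 against -0.67 for all genes. The transcription factors of the lineage were among them. SOX10, which sets oligodendrocyte identity, was at 125 and 167 TPM against 0.222 to 1.75 TPM, and MYRF, which turns on myelin genes, was at 124 and 142 TPM against 0.215 to 0.706 TPM. CNP, an enzyme of non-compact myelin, was at 1207 and 1876 TPM against 33.7 to 51.8 TPM. CLDN11, the tight-junction claudin of myelin, was at 495 and 902 TPM against 17.99 to 123 TPM, highest among the 8 in S0384. The summed level of the 16 was 45062 and 64111 TPM against 307 to 499 TPM. MBP, by which the sets were chosen, is among the 16 and among the 14 called higher. It gave 30538 and 37999 TPM of the sums in S0235 and S0355, so most of each sum restates that choice. QDPR, a pterin reductase, did not overlap but missed the size limit (544 and 423 TPM against 83.3 to 270 TPM).

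MOG, a surface protein of myelin, was the exception: it was listed at 0 in S0235 and at 4.28 TPM in S0355, against 4.41 to 7.84 TPM in the other 8. Its 3 transcripts matched residues 196 to 243 of a MOG entry only, at 85.4% identity, and came from kidney, loin and lung assemblies, so these values describe that stretch and not the whole gene. MAG and MOBP had no matching entry and were not analysed here.

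Markers of oligodendrocyte precursors were less separated on the TPM scale, with 2 of 6 tested called higher and none lower. Among all genes 3.28% were called higher and 7.63% lower. With median-ratio scaling 5 of the 6 were called higher, where 789 of all 13225 genes tested were. BCAS1, a protein of oligodendrocytes that are starting to myelinate, was at 751 and 1163 TPM against 0.818 to 43.7 TPM. CSPG4, the NG2 proteoglycan of precursors, was at 8.25 and 8.61 TPM against 0.209 to 1.02 TPM. PDGFRA, the receptor that drives precursor growth, was at 13.0 and 18.8 TPM against 1.96 to 8.11 TPM and missed the size limit. Genes of Schwann cells, the myelin makers of peripheral nerve, gave 1 higher and 1 lower of 7: PMP22 was at 247 and 615 TPM against 23.2 to 109 TPM, and EGR2 at 1.0004 and 2.03 TPM against 3.74 to 70.9 TPM.

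Of 25 genes for sterol and myelin lipid synthesis, 7 were called higher and none lower, against 3.28% higher calls among all genes. Their median difference was 1.69, while 18 were not called and 11 of these overlapped between the sets. Of the 7, UGT8, FA2H and GAL3ST1 are also on the myelin list above. UGT8, which makes galactocerebroside, was at 125 and 267 TPM against 0.191 to 0.511 TPM. FA2H, which hydroxylates the fatty acids of myelin galactolipids, was at 118 and 241 TPM against 0.198 to 1.59 TPM, and GAL3ST1, which adds the sulfate of sulfatide, at 22.5 and 32.4 TPM against 0.464 to 2.15 TPM. CERS2 and ELOVL1, which build very long chain ceramides, were at 123 and 223 TPM against 26.5 to 47.7 TPM and at 42.3 and 85.7 TPM against 6.63 to 10.5 TPM. In the cholesterol pathway HMGCS1, an early enzyme, was called (157 and 267 TPM against 34.2 to 49.4 TPM). In 24 of these 25 genes S0355 was higher than S0235, as a typical gene was on the TPM scale. With median-ratio scaling 14 of the 25 were called higher.

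Astrocyte genes were higher too: 10 of 14 tested were called higher and none lower, against 3.28% higher calls among all genes. Their median difference was 3.61. AQP4, the water channel of astrocyte end-feet, was at 260 and 933 TPM against 3.29 to 22.8 TPM. The glutamate transporter SLC1A3 was at 639 and 234 TPM against 4.79 to 24.4 TPM, and SLC1A2, the other main glutamate transporter of astrocytes, at 47.8 and 7.34 TPM against 0.725 to 2.56 TPM. Both transporters were higher in S0235 than in S0355, unlike GFAP, AQP4 and AGT. AGT, angiotensinogen, was at 324 and 1683 TPM against 5.13 to 52.3 TPM. APOE, the lipid carrier of astrocytes and macrophages, was at 5055 and 4735 TPM against 28.8 to 823 TPM. CLU, a secreted chaperone, overlapped (1875 and 3022 TPM against 1348 to 3539 TPM), as did ALDH1L1, a folate enzyme (10.9 and 4.12 TPM against 3.08 to 9.18 TPM).

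S100B, a calcium-binding protein shared by astrocytes and the folliculostellate cells of the pituitary, was high in all 10 libraries. It was at 8014 and 10066 TPM in the MBP-high set and at 480 to 2158 TPM in the other 8, with S0384 and S0326 highest among the 8. PTGDS, prostaglandin D synthase of meninges and oligodendrocytes, was at 3688 and 8225 TPM against 110 to 2781 TPM, and again S0384 and S0326 were the highest of the 8.

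Microglial genes were called higher in 7 of 13 cases and lower in 1, against 3.28% and 7.63% among all genes. Their median difference was 2.47. CX3CR1, the fractalkine receptor of microglia, was at 54.4 and 100.4 TPM against 1.95 to 11.08 TPM. P2RY12, a purine receptor of resting microglia, was at 28.5 and 78.8 TPM against 0.747 to 11.96 TPM, and CSF1R, the growth-factor receptor of the lineage, at 101 and 271 TPM against 8.07 to 54.5 TPM. The gene called lower was CD163, the haemoglobin scavenger receptor of perivascular and tissue macrophages, at 0.421 and 2.16 TPM against 4.94 to 25.3 TPM. All 13 were higher in S0355 than in S0235, which is also the direction of a typical gene on the TPM scale. Leaving out mitochondrially encoded transcripts gave 10 higher and 1 lower, and median-ratio scaling gave 10 higher and none lower.

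**Figure D4:**
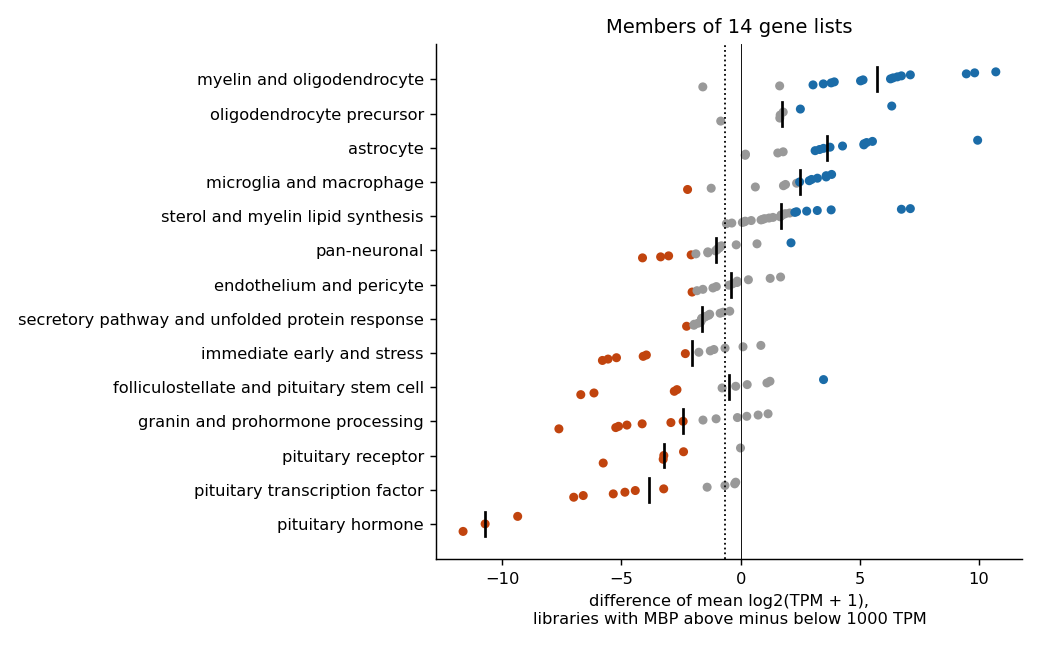
Difference of mean log2(TPM + 1) between the MBP-high libraries and the other 8 for each tested member of 14 gene lists, 1 point per gene, blue where called higher, red where called lower and grey where not called. Thick bars are list medians and the dotted line is the median of all genes (-0.67), and the lists run from myelin genes (median 5.71) to pituitary hormones (median -10.7).

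Transcription factors of the pituitary were lower in the MBP-high libraries, with 6 of 10 tested called lower and none higher. Among all genes 7.63% were called lower, and the median difference of these factors was -3.82. PITX1, which acts in all hormone-cell lineages of the anterior pituitary, was at 0.0961 and 0.0634 TPM against 54.3 to 238 TPM. NR5A1, the gonadotroph factor SF-1, was listed at 0 in both against 7.03 to 52.2 TPM. SIX6 and EYA1, factors of early pituitary growth, were also called. SOX2, which neural and pituitary progenitors share, overlapped between the sets (50.9 and 129 TPM against 60.6 to 205 TPM). POU1F1 had no matching entry and was not analysed here.

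Hormone and dopamine receptors listed for the pituitary answer to signals from the hypothalamus and from the blood. They were called lower in 4 of 5 cases, against 7.63% among all genes. DRD2, the dopamine receptor that holds prolactin release down, was at 0.239 and 2.28 TPM against 61.8 to 208 TPM. GNRHR, the receptor for gonadotropin-releasing hormone, was at 1.16 and 1.81 TPM against 7.06 to 44.1 TPM. The leptin receptor LEPR and the thyroid hormone receptor THRB were the other two. The glucocorticoid receptor NR3C1 did not separate the sets (11.0 and 27.3 TPM against 8.55 to 22.7 TPM).

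Granins and hormone-processing proteins, the cargo and enzymes of dense-core vesicles, were called lower in 7 of 13 cases and higher in none. The share of lower calls among all genes was 7.63%, and the median difference of this list was -2.41. SCG2, secretogranin II, was at 21.6 and 3.65 TPM against 1186 to 3205 TPM, and CHGA, chromogranin A, at 32.6 and 14.2 TPM against 246 to 1846 TPM. PCSK2, a protease that cuts prohormones, was at 2.90 and 0.966 TPM against 19.3 to 262 TPM. CPE, the carboxypeptidase that trims them, overlapped (220 and 227 TPM against 59.9 to 328 TPM), as did SCG3 (110 and 186 TPM against 97.0 to 202 TPM). The endoplasmic reticulum genes of secretion had 1 of 16 called lower, which is near the share among all genes. It was HSPA5, the chaperone BiP (95.3 and 147 TPM against 342 to 770 TPM). Ranges did not overlap for 13 of the 16, all of them lower, against 4428 lower of all 13210 genes. The median difference of all 16 was -1.64, and -0.90 with median-ratio scaling, where none was called.

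The 20 genes with the largest differences in the lower direction included 9 from the lists for pituitary hormones, factors, receptors, granins and stem cells. Some of the 20 are genes that epithelia express, which was no list of its own. KRT8 and KRT18, the paired keratins of simple epithelia, were at 3.36 and 16.8 TPM against 366 to 781 TPM and at 1.07 and 0.167 TPM against 91.9 to 207 TPM. EPCAM, an adhesion molecule of epithelia, was at 1.88 and 3.70 TPM against 266 to 438 TPM, and ESRP1, the epithelial splicing regulator, at 0.0881 and 0.0443 TPM against 33.4 to 80.8 TPM. NNAT, neuronatin, the most abundant gene of S0385, was at 107 and 538 TPM against 6930.2 to 28527 TPM. GPX3, the secreted glutathione peroxidase, was at 4.06 and 18.8 TPM against 383 to 2295 TPM. Others of the 20 were CGA, POMC, PRL, SCG2, ELAPOR1, PITX1, WFDC2, EGR1, IGSF1, DRD2, MSX1, AP1M2 and FOSB, with differences from -11.6 to -5.56.

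Genes of folliculostellate and stem cells of the pituitary were mixed, with 4 of 10 called lower and 1, S100B, higher. The shares among all genes were 7.63% and 3.28%. The 4 were KRT8, KRT18, the cell adhesion gene CDH1 (4.74 and 13.3 TPM against 20.5 to 94.9 TPM) and the retinoic acid enzyme ALDH1A1 (88.5 and 60.1 TPM against 122 to 1095 TPM). The median difference of all 10 was -0.49 on the TPM scale and 0.20 with median-ratio scaling.

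Of 12 immediate early and stress genes, 6 were called lower and none higher (median difference -2.04), against 7.63% lower calls among all genes. The 6 are all immediate early genes, which cells switch on within minutes of a stimulus. EGR1 was at 8.59 and 14.1 TPM against 378 to 980 TPM, FOSB at 0.687 and 0.804 TPM against 23.5 to 188 TPM, and NR4A1 at 8.91 and 31.7 TPM against 367 to 1615 TPM. FOS was at 10.1 and 100.4 TPM against 400 to 1137 TPM, and JUNB and IER2 were the remaining calls. HSPA1A, the inducible heat shock protein, overlapped (250 and 314 TPM against 196 to 412 TPM). All 12 were higher in S0355 than in S0235, again the direction of a typical gene on the TPM scale. With median-ratio scaling 5 were called lower.

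Pan-neuronal genes did not go with the glial ones. Of 16 pan-neuronal genes tested, 4 were called lower and 1 higher, against 7.63% and 3.28% among all genes. Their median difference was -1.03, close to the -0.67 of all genes. SNAP25, a vesicle fusion protein that endocrine cells also use, was at 204 and 11.3 TPM against 317 to 664 TPM. The neurofilament gene NEFM was at 44.4 and 13.7 TPM against 146 to 346 TPM, and NEFL and INA, which build the same filaments, were the other lower calls. ELAVL3, a neuronal RNA-binding protein, was higher (55.3 and 110 TPM against 11.8 to 26.4 TPM). With median-ratio scaling 2 were called lower and 1 higher. None of the 4 matched genes of excitatory neurons was called, and their median difference was 1.15. Of these, GRIA1 lay higher without overlap (10.8 and 40.8 TPM against 3.11 to 9.07 TPM). RORB lay lower without overlap (3.74 and 10.4 TPM against 22.1 to 33.3 TPM). The 2 matched genes of inhibitory neurons, both calcium-binding proteins, went opposite ways. PVALB was called higher, at 31.9 and 45.5 TPM against 0 to 0.396 TPM, and CALB1 lay lower but missed the size limit, at 0.122 and 0.0483 TPM against 0.862 to 4.49 TPM.

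Genes of blood vessels gave 1 call among 12, a lower one, which is near the 7.63% called lower among all genes. It was PECAM1, an endothelial adhesion molecule, at 7.48 and 3.04 TPM against 13.8 to 32.2 TPM. The median difference of the vessel genes was -0.42, and 0.28 with median-ratio scaling, where 1 was called higher and none lower. SLC2A1, the glucose transporter of blood-brain barrier endothelium, was at 105 and 99.7 TPM in S0235 and S0355, at 113 and 135 TPM in S0326 and S0384, and at 15.6 to 54.2 TPM in the remaining 6. CLDN5, the claudin of that barrier, was at 80.1 and 90.1 TPM, at 80.8 and 88.3 TPM, and at 11.3 to 26.0 TPM in the same order. PLVAP, the diaphragm protein of fenestrated vessels, was at 28.0 and 35.6 TPM in the MBP-high libraries and at 69.7 to 174 TPM in the other 8. None of these 3 was called: SLC2A1 and CLDN5 overlapped between the sets and PLVAP missed the size limit.

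Markers of the remaining cell types gave few calls, too few to set apart from the 3.28% higher and 7.63% lower among all genes. Meningeal and fibroblast genes gave 1 higher (PTGDS) and 1 lower of 9, the lower one being ALDH1A2, a retinoic acid enzyme, at 0.198 and 2.67 TPM against 10.1 to 133 TPM. Ependymal and choroid plexus genes gave 1 lower of 6, the water channel AQP1, listed at 0 in S0235 and at 0.968 TPM in S0355 against 2.72 to 17.3 TPM. Skeletal muscle (6 tested), adipocyte (3) and red cell genes (2) gave no call in either direction, and their summed levels overlapped or lay below those of the other 8: muscle genes summed to 12.1 and 15.6 TPM against 13.2 to 42.0 TPM, and adipocyte genes to 8.14 and 8.83 TPM against 6.24 to 39.1 TPM. Red cell genes summed to 237 and 55.7 TPM against 4.75 to 367 TPM. Genes of the posterior pituitary (5 tested) and of hypothalamic peptides (3 tested) gave no call, and they varied within both sets.

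The MBP-high libraries were not alike in every respect. Across the genes tested, Pearson's r of log2(TPM + 1) between them was 0.91, against 0.69 to 0.78 between either of them and any of the 8, and genes are not independent replicates. Neuronal genes were higher in S0235 than in S0355 for 12 of 16 pan-neuronal members, with a median difference of 1.43 log2 units. CAMK2A, a kinase of forebrain excitatory neurons, was at 167 TPM in S0235 and 3.42 TPM in S0355, and SYN1, a synaptic vesicle protein, at 50.8 and 1.83 TPM. The cortical factors EMX1 and EMX2 were at 2.07 and 5.44 TPM in S0235, at 0.0593 and 0.199 TPM in S0355, and at most 0.0242 TPM in the other 8.

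S0355 instead held genes of other regions. ZIC1, a factor of the dorsal neural tube and its derivatives, was at 42.3 TPM there against 0.780 TPM in S0235 and at most 0.552 TPM in the other 8. IRX1 was at 4.25 TPM and PAX2 at 3.68 TPM in S0355, against at most 0.472 and 0.0904 TPM in every other brain library. TTR, transthyretin, which the choroid plexus secretes, was at 90.2 TPM in S0355 and 2.32 TPM in S0235. The hypothalamic peptides OXT (oxytocin) and AVP (vasopressin) were at 167 and 168 TPM in S0355 and at 0.907 and 0.253 TPM in S0235. HOX genes, which mark hindbrain and spinal cord levels, were near 0 in both, with a sum of 0.807 and 3.44 TPM over 25 genes, against 1.64 to 8.10 TPM in the other 8. The largest part of each sum was the HOXB8 entry, at 0.394 and 2.13 TPM against 1.07 to 6.92 TPM. With 1 library for each animal, differences between S0235 and S0355 have no replicate check.

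The 8 other libraries were not uniform either: S0326 (ET) and S0384 (L) lay apart from the remaining 6, and these were singled out after their values were seen. Their profiles had an r of 0.95 with each other and 0.87 to 0.92 with the remaining 6, which had 0.96 to 0.98 among themselves. Hormone genes set them apart in different directions. PRL was at 1331 and 805 TPM in S0326 and S0384 against 10310.1 to 40120.5 TPM in the 6, and CGA at 3690.3 and 2085 TPM against 5389 to 28265 TPM. POMC was at 77972 TPM in S0326, the highest of all, and at 21736 TPM in S0384, within the range of the 6 (5271 to 22387 TPM). NR5A1 was at 8.52 and 7.03 TPM against 30.7 to 52.2 TPM.

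Several genes from the lists for hypothalamic peptides, regional factors and the posterior pituitary were higher in S0326 and S0384 than in the 6, though not all. OXT was at 919 and 945 TPM against 10.5 to 319 TPM in the 6, and AVP at 301 and 111 TPM against 4.62 to 33.9 TPM. CARTPT, the third matched hypothalamic peptide, was at 2.96 and 3.57 TPM, near the low end of the 2.40 to 47.7 TPM of the 6. NKX2-1, a transcription factor of the hypothalamus and posterior lobe, was at 125 and 158 TPM against 1.71 to 40.4 TPM, and LHX2, which posterior lobe formation needs, at 191 and 197 TPM against 2.63 to 56.4 TPM. CRABP1, a retinoic acid carrier, was at 364 and 514 TPM against 31.3 to 194 TPM, and VIM, the filament vimentin of glia-like cells, at 2149 and 3661 TPM against 191 to 785 TPM. GFAP did not follow, at 6.29 and 43.6 TPM against 0.985 to 29.0 TPM. MBP was lower in both (15.98 and 28.8 TPM) than in any of the 6 (51.1 to 80.1 TPM).

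**Figure D5:**
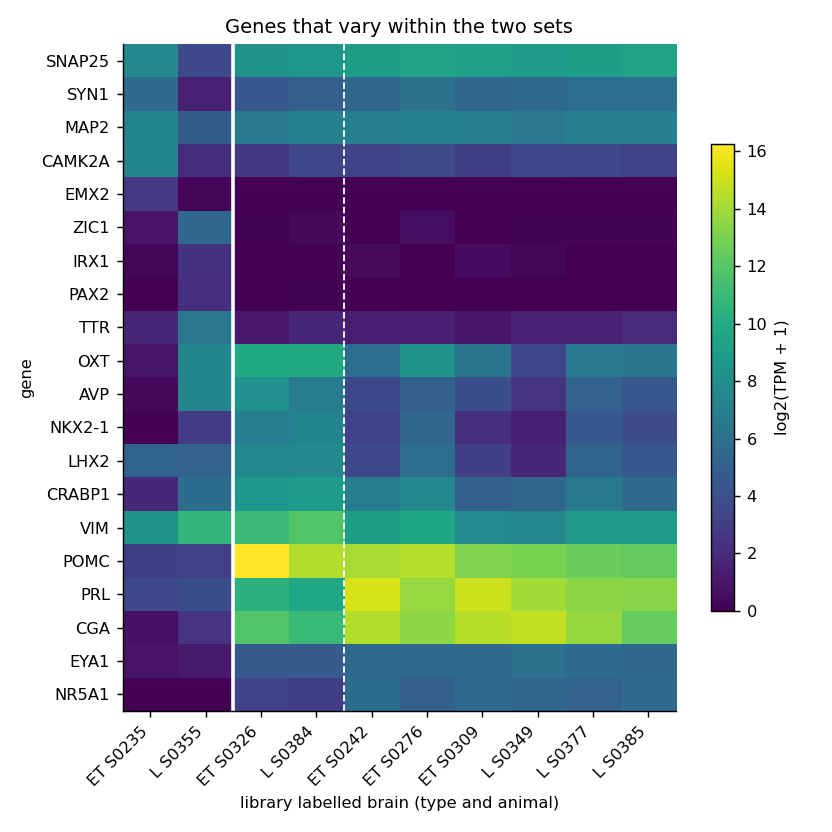
log2(TPM + 1) of 20 genes (rows) in the libraries labelled brain (columns), with the MBP-high libraries left of the solid line and S0326 and S0384 left of the dashed line, the genes having been chosen after their values were seen. OXT, NKX2-1 and LHX2 are highest in S0326 and S0384, where EYA1 and NR5A1 are below the remaining 6, while CAMK2A and EMX2 are highest in S0235 and ZIC1 and TTR in S0355.

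Each type gave 1 MBP-high library, and both stayed in the comparison of the types. With limma on log2(TPM + 1) over all 10 libraries, 0 of 13210 genes (0%) had an adjusted p under 0.05 for ET against L, and 501 had an unadjusted p under 0.05. MBP averaged 7.37 in 5 ET libraries and 7.59 in 5 L libraries on the log2 scale, a difference of -0.21 ± 2.33 (SE) with adjusted p = 0.973 in limma. PRL differed by 0.74 ± 2.49 (SE), with adjusted p = 0.915 in limma. With S0235 and S0355 left out, the SE of the MBP difference was 0.47 and that of PRL 1.24. Then 0 of 13111 genes were called by limma and 1079 had an unadjusted p under 0.05. The smallest adjusted p in limma was 0.841 with all 10 libraries and 0.586 with 8.

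The 5 genes with the smallest p for type over all 10 libraries kept their direction without S0235 and S0355, and none passed. The 8 libraries left are among the 10 in which these genes were chosen, so the kept direction is no independent check. KCNF1, a modifier subunit of potassium channels, was higher in ET by 1.95 ± 0.39 log2 units (SE), and by 1.67 ± 0.35 without the MBP-high libraries. CELSR1, a planar polarity cadherin, was lower in ET (-1.16 ± 0.25, and -1.31 ± 0.23 without them). NFIA, a factor of glial fate, was at -1.71 ± 0.42 and -1.45 ± 0.43. NOD1, a sensor of bacterial cell walls, and KSR1, a scaffold of the MAP kinase pathway, were at -0.94 ± 0.23 and -1.03 ± 0.26, and at -0.81 ± 0.19 and -0.86 ± 0.23 without them. For all 5, limma gave an adjusted p of 0.841 with 10 libraries and 0.586 with 8. The median of all genes differed between the types by -0.29 log2 units on the TPM scale and by -0.013 with median-ratio scaling.

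Some libraries of the same 2 animals from other tissues held RNA that differs from their labels. The other animals are not described here in this respect, so this is not shown to be particular to these 2. The lymph library of S0235 had UMOD, a kidney tubule protein, at 2156 TPM and the T-cell gene CD3E at 3.13 TPM. The backfat library of S0355 had muscle creatine kinase CKM at 23749 TPM and its loin library had the adipocyte hormone ADIPOQ at 1139 TPM. None of these 3 tissues' markers was high in the brain libraries of the same animals: UMOD, CKM and ADIPOQ were at 0.0936, 0.168 and 0.164 TPM in S0235 brain, and at 0.281, 0.317 and 0 TPM in S0355 brain.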

How the data were processed

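The authors deposited TPM for 57085 de novo assembled transcripts in 50 libraries, and the submitters' processing notes name Trimmomatic 0.36 and Salmon 1.10.0. TPM keeps no read depth, so depth is unknown and only the spread between libraries measures error. A gene here is the Swiss-Prot entry of a transcript's best deposited BLASTX hit (E value at most 1e-10, animal proteins, repeats left out). TPM was summed per entry, from 32183 transcripts into 14428 genes. Genes averaging at least 1 TPM over the 10 brain libraries were tested. Sets were described by ranges and by differences of mean log2(TPM + 1), with no test. ET and L were compared with limma 3.58.1 in R 4.3.3 (intensity trend, two-sided, Benjamini-Hochberg). The scripts were tested on simulated data.

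The members, the gene lists and the call rule were chosen with earlier results of these data known. Of 414 listed genes, 296 were matched. Named genes were MBP, GFAP and PRL, the 20 called genes per direction with the largest differences among those averaging at least 50 TPM in the higher set, up to 8 members per list by highest TPM, and the 5 smallest p for type. Other genes were named after their values were seen, and some genes are not reported here. Replicates are separate animals per the labels. No sequences are shown. Chromosome positions are from RefSeq on Sscrofa11.1.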

Additional observations from a re-analysis of the deposited data

Results flagged for a closer look

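Of 46 groups of values examined, 5 held a library far from the others by Dixon's ratio on log2(TPM + 1), the gap to the nearest library divided by the whole range, being above the 95% critical value for groups of that size. Chance alone gives about 5% of groups. Among the 5 ET brain libraries S0235 was far above the rest for MBP (ratio 0.791). Among the 5 L brain libraries S0355 was far above the rest for MBP (0.891) and for GFAP (0.716). The MBP ratios restate the values by which the sets were chosen, and GFAP was read from the same libraries. Among the 8 libraries with MBP below 1000 TPM, S0384 was the lowest for the keratin KRT18 at 91.9 TPM against 145 to 207 TPM (0.559), and S0242 was the lowest for the immediate early gene FOSB at 23.5 TPM (0.530).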

How the results depend on the processing

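The counts of genes called higher and lower in the MBP-high libraries (433 and 1008) moved by more than 1.5 times under these settings: a log2 difference of at least 1 (834 and 3364), a pseudocount of 5 (274 and 402) and median-ratio scaling (789 and 501). All 433 higher calls and 499 of the lower calls were kept with median-ratio scaling. Leaving out 1 library at a time gave 373 to 664 higher and 752 to 2047 lower calls. The extremes came from leaving out S0235 (664 and 752) or S0355 (373 and 2047), and the cause was not tested. Under a pseudocount of 0.1, no filter, a mean of at least 5 TPM, an E value of at most 1e-30, 1 transcript per gene, hormone entries left out, and mitochondrially encoded entries left out (added after the data were seen), the counts stayed within 1.5 times. For ET against L, limma called 0 genes under every setting run, with a smallest adjusted p between 0.567 and 0.9999, and 0 in every leave-one-out fit. Of 197 genes followed, none of the called ones changed sign, but 140 had a difference that moved by over 1 SD of the 8 libraries under at least 1 setting (380 values in all). No paired analysis was possible because the ET and L animals are different animals and each gave 1 brain library. Read depth is unknown, so low values carry no counting error, and with 2 MBP-high libraries their spread is poorly known.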

Other observations

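The beta subunit of luteinising hormone, LHB, appeared under another name, which was noticed after the values were seen. The 4 transcripts with the RUVBL2 entry, a DNA helicase, also have a deposited peptide match to pig LHB at 97.2% to 100% identity. In RefSeq on Sscrofa11.1, RUVBL2 (54250494 to 54263492) and LHB (54263574 to 54269286) are neighbours on chromosome 6. The 2403-base transcript was at 21.1 TPM in S0235 and 31.6 TPM in S0355, against 165 to 2391 TPM in the other 8 brain libraries and 4.68 to 46.0 TPM in other tissues. It was lowest among the 8 in S0384, at 165 TPM. Which of the neighbours its reads came from was not tested.

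Of 7 lymphocyte and plasma cell genes tested, 2 were called lower in the MBP-high libraries and none higher, against 7.63% lower calls among all genes. CD79B, a subunit of the B-cell receptor, was at 0.168 and 0.0334 TPM in the MBP-high libraries and at 5.10 to 189 TPM in the other 8, highest in S0385. JCHAIN, which joins secreted antibodies, was at 2.40 and 3.74 TPM against 8.31 to 369 TPM, highest in S0326. CD3E and MS4A1, of T and B cells, were at most 9.04 and 1.13 TPM in any of the 10. CD247, a signalling chain of the T-cell receptor, was at 29.4 and 92.6 TPM against 32.2 to 51.8 TPM, and MZB1, a plasma cell protein, reached 24.3 TPM in S0326 and 15.7 TPM in S0384. ITPR1, a calcium release channel, was at 4.61 and 5.07 TPM against 8.46 to 203 TPM, highest in S0385.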
